A study of Mus musculus with 24 samples.

Results

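The constant region genes of the immunoglobulins were measured in 24 mouse bladder tumors. The genes were taken by name and were Ighm, Ighd, Igha, Ighg1, Ighg2b, Ighg2c, Ighg3, Igkc, Iglc1 and Iglc2, which are 10 of 53465 genes in the table and 10 of its 13 annotated immunoglobulin constant genes. The tumors came from 8 BURP lines, with 3 tumors per line. C57BL/6NTac mice that were 8 weeks old had been given 0.1% BBN, a nitrosamine carcinogen of the bladder, in drinking water for up to 36 weeks, and their bladder tumors were then carried under the skin of C57BL/6NTac hosts of the same sex with intact immunity. The basal/squamous (Ba/Sq) lines of male origin were BURP-12BaSq, BURP-17BaSq and BURP-18BaSq. The Ba/Sq lines of female origin were BURP-21BaSq, BURP-24BaSq plus BURP-25BaSq. BURP-16SR was a stroma-rich line and BURP-19NE a neuroendocrine-like line, both from male mice. The sample titles give the line of a tumor and, for 7 tumors, its passage, from 2 to 5, by which these tumors are named (P4 is passage 4). Subtype and sex of the lines are as the study describes them, and it assigned the subtypes with RNA of these tumors. Each line descended from 1 donor tumor, so its 3 tumors share an origin and p-values measure the spread between tumors rather than between donors. Age of the hosts at collection was not given in the sources used here.

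A B cell makes IgM and IgD first, from Ighm and Ighd, and may then switch to an IgG, IgA or IgE constant gene downstream while it keeps its variable region. Each antibody also has a light chain, which in mice is mostly kappa (Igkc) and less often lambda (Iglc1, Iglc2, Iglc3). Plasma cells carry far more immunoglobulin RNA per cell than resting B cells, add the J chain (Jchain) to secreted IgM and IgA, and lose surface markers such as Ms4a1. A resting B cell that has not switched carries both Ighm and Ighd, and a plasma cell has mostly lost Ighd. C57BL/6 mice carry Ighg2c in the place where some other strains have Ighg2a, and Ighg2a had no row in the table.

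The heavy chain genes lie together on the minus strand of chromosome 12 of the build GRCm38, from Igha at 113254830 to 113260236 up to Ighm at 113418558 to 113422730. Igkc is a single exon on chromosome 6 from 70726435 to 70726966, and Iglc1 and Iglc2 lie on the minus strand of chromosome 16. The IgG genes differ most visibly in the exon for the hinge, the flexible stretch whose cysteines join the heavy chains to each other. The hinge exons are shown because the IgG genes were used very unequally by the tumors, and these exons tell the 4 genes apart. Each is exon 2 of its gene, read from the GENCODE M21 transcripts on the minus strand, and the capitals mark codons for cysteine in the reading frame.
Ighg1, chr12:113329844-113329882: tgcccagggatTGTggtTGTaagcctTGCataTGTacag
Ighg2b, chr12:113307261-113307326: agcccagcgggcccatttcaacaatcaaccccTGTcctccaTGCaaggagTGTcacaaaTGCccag
Ighg2c, chr12:113288263-113288325: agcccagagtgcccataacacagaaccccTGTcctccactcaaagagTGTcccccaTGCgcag
Ighg3, chr12:113360529-113360576: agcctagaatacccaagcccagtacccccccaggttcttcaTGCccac
Ighg1 and Ighg2b have 4 such codons, Ighg2c has 3 and Ighg3 has 1.

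The lambda constant genes are more alike, which limits how well reads can be assigned to each. The first stretch of 120 bases of the constant exon of each is shown for that reason, on the minus strand, and the capitals mark positions at which the 3 genes are not all the same.
Iglc1, chr16:19061944-19062063: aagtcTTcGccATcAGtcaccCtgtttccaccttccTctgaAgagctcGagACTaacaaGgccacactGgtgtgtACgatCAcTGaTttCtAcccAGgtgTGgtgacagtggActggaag
Iglc2, chr16:19198725-19198844: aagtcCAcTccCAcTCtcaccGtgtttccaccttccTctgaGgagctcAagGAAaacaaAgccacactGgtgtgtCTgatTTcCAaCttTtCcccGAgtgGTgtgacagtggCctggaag
Iglc3, chr16:19065554-19065673: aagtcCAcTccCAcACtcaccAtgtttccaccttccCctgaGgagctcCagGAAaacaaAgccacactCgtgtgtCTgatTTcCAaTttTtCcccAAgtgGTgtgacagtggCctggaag
Over these bases Iglc2 differed from Iglc3 at 7 positions and Iglc1 differed from Iglc2 at 28. Of all 50-base windows of the annotated transcripts, 7.65% of those of Iglc2 were also in another constant gene, as were 5.49% for Ighg2c, 4.15% for Ighg2b, 1.58% for Ighg3 and 0.393% for Ighg1. Ighm, Ighd, Igha, Igkc and Iglc1 shared none, so the split between Iglc2 and Iglc3 is the least certain of those reported here.

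Total counts per tumor were 9295708 to 25370320, and 3 counts, taken as the smallest level a library could show, stood for 0.106 to 0.412 CPM in 23 tumors. CPM are counts per 1000000 counts of the library after TMM scaling over the 24 tumors. In tumor C102-M30 of BURP-25BaSq a gene for ribosomal RNA took 61.9% of the counts and the floor was 1.18 CPM. The RNA of tumor C102-M1, labelled BURP-25BaSq, resembled BURP-21BaSq, so results that rest on it are given for the tumor as labelled. Intervals and floors cover counting error only, and the labels name no batch.

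Immunoglobulin RNA was concentrated in a few tumors of different lines, and tumors of 1 line often lay far apart. The 10 genes held 47976 counts over the 24 tumors, and 90.7% of these lay in 6 tumors. The 6 were C73-M10 and C74-MNT of BURP-16SR, C152-M1 of BURP-17BaSq, P4 of BURP-18BaSq, P5 of BURP-21BaSq and P2 of BURP-24BaSq. Summed over the genes, the level ran from 0.42 CPM in C165-M30 of BURP-17BaSq to 796.1 CPM in C73-M10, with a median of 8.26 CPM. In bulk tumors, fewer plasma cells or B cells and less RNA per cell cannot be told apart.

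**Figure D1:**
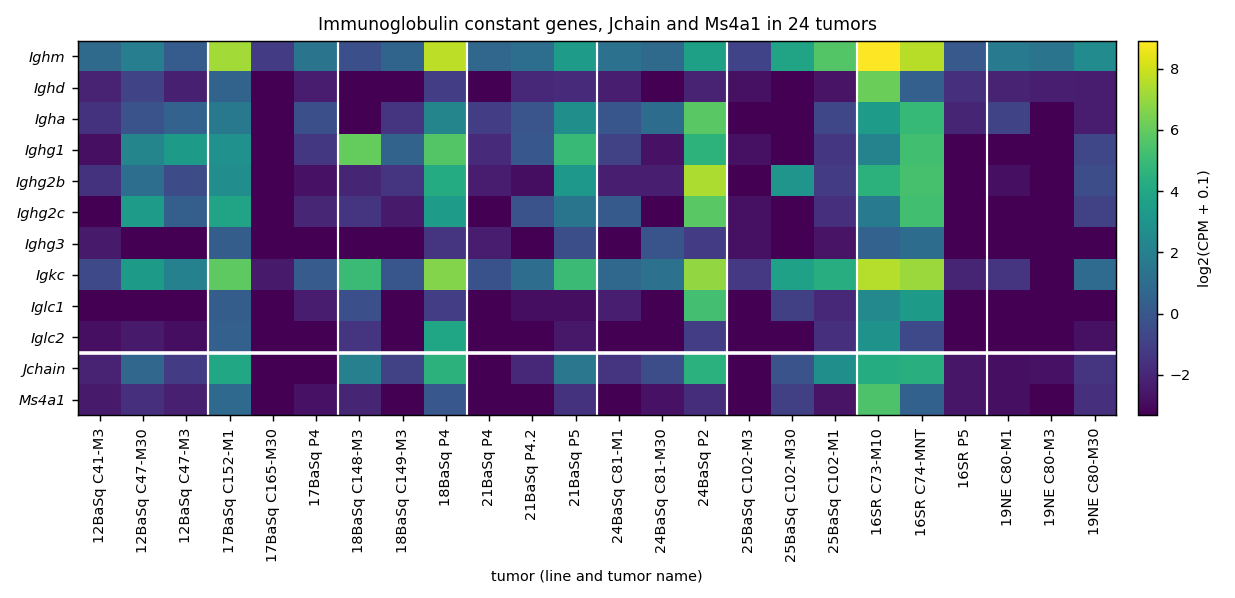
Levels of the 10 constant genes, Jchain and Ms4a1 (rows) in the 24 tumors (columns, grouped by line) as log2(CPM + 0.1). The 6 tumors with 90.7% of the counts stand out in 5 lines, beside darker columns of the same line, and the Ms4a1 row is bright in 1 tumor, C73-M10 of BURP-16SR.

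Ighm, the constant gene of IgM, was detected in every tumor. It was at 481 CPM in C73-M10, 196.0 CPM in C74-MNT and 0.978 CPM in P5 of BURP-16SR. In BURP-17BaSq it was at 147 CPM in C152-M1, 0.336 CPM in C165-M30 and 2.51 CPM in P4. In BURP-18BaSq it was at 0.686 CPM in C148-M3, 1.46 CPM in C149-M3 and 203 CPM in P4. Each of these 3 lines thus held tumors at both ends of the range. BURP-25BaSq had 0.445 CPM in C102-M3, 14.2 CPM in C102-M30 and 50.4 CPM in C102-M1. BURP-12BaSq (1.79, 3.61 and 1.07 CPM), BURP-21BaSq (1.56, 2.01 and 10.8 CPM) and BURP-24BaSq (2.34, 1.75 and 12.4 CPM) stayed lower. BURP-19NE was the most even line, at 3.32, 2.48 and 5.90 CPM. Line means were 226 ± 241 CPM in BURP-16SR (SD, n = 3), 68.5 ± 117 in BURP-18BaSq, 50.1 ± 84.3 in BURP-17BaSq and 3.9 ± 1.78 in BURP-19NE. For Ighm the SD exceeded the mean in 6 of 8 lines.

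Igkc, the constant gene of kappa light chains, followed the same tumors. It was at 188 CPM in C73-M10, 134.5 CPM in C74-MNT and 0.14 CPM in P5 of BURP-16SR. It reached 119.7 CPM in P2 of BURP-24BaSq, against 1.68 and 2.38 CPM in the other tumors of that line, and 98.8 CPM in P4 of BURP-18BaSq, against 32.4 and 0.857 CPM. BURP-17BaSq had 57.7, 0.084 and 1.03 CPM, and BURP-21BaSq had 0.734, 1.97 and 31.8 CPM. The remaining Ba/Sq lines were at 0.541, 9.93 and 4.10 CPM for BURP-12BaSq and 0.311, 12.6 and 19.9 CPM for BURP-25BaSq. The lowest line was BURP-19NE, at 0.252, 0 and 1.86 CPM. The 0 stands for no count in C80-M3, where the floor was 0.158 CPM. By line mean the order ran from BURP-16SR through BURP-18BaSq, BURP-24BaSq, BURP-17BaSq, BURP-21BaSq, BURP-25BaSq and BURP-12BaSq to BURP-19NE. Every pair of neighbours in it overlapped, and the same held for the line order of each of the other 9 genes.

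Ighd, the constant gene of IgD, stood out in a single tumor. It was at 70.7 CPM (835 counts) in C73-M10, 1.24 CPM (16 counts) in C74-MNT and 0.21 CPM (3 counts) in P5. In the 18 Ba/Sq tumors it was between 0 and 1.38 CPM, with a median of 0.1 CPM, and in BURP-19NE between 0.0907 and 0.126 CPM. For each 100 counts of Ighm, C73-M10 had 14.7 counts of Ighd, and the other tumors with at least 100 counts of Ighm had 0.111 to 1.64.

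The class-switched genes were high in other tumors. Igha, the constant gene of IgA, was highest in P2 of BURP-24BaSq at 55.4 CPM, with 28.8 CPM in C74-MNT and 10.9 CPM in C73-M10 of BURP-16SR. It was at 6.69 CPM in P5 of BURP-21BaSq and under 5 CPM in the rest. Ighg1 was highest in C148-M3 of BURP-18BaSq at 65.2 CPM, a tumor with 5 counts of Ighm. P4 of BURP-18BaSq had 50.1 CPM, C74-MNT 36.4 CPM, P5 of BURP-21BaSq 30.7 CPM and P2 of BURP-24BaSq 24 CPM. Ighg2b reached 167 CPM in P2 of BURP-24BaSq, where C81-M1 and C81-M30 of the same line had 0.102 and 0.106 CPM. Ighg2c was highest in P2 of BURP-24BaSq at 54.9 CPM and in C74-MNT at 37.0 CPM, and was at 13.9 CPM in C152-M1 and 10.7 CPM in C47-M30 of BURP-12BaSq. Ighg3 was low throughout, with 1.93 CPM in C74-MNT as its highest level and 0 counts in 13 tumors. Iglc1 was at 37.6 CPM in P2 of BURP-24BaSq and at most 9.90 CPM elsewhere, and Iglc2 was at 14.4 CPM in P4 of BURP-18BaSq and at most 7.62 CPM elsewhere. Of the 3 annotated constant genes outside the 10, Iglc3 was highest in C73-M10 at 13.7 CPM, Ighe had at most 10 counts, in C74-MNT, and Iglc4 had 2 counts in C73-M10 and none in the other tumors.

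**Figure D2:**
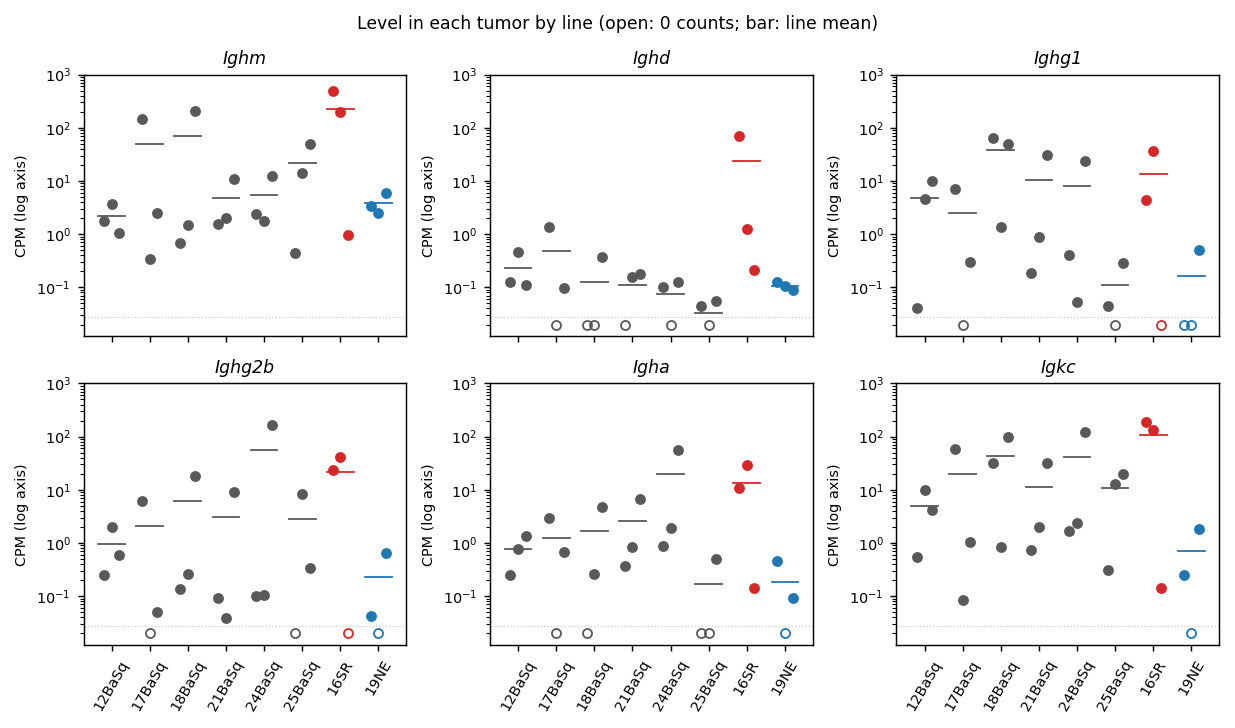
CPM on a log axis for Ighm, Ighd, Ighg1, Ighg2b, Igha and Igkc in each tumor, by line (grey Ba/Sq lines, red BURP-16SR, blue BURP-19NE; the bar is the line mean, open circles at the bottom are tumors with 0 counts). Within BURP-16SR, Igkc spans 0.14 to 188 CPM. With the lines ranked by their mean for a gene, which is not the order drawn, the range of each line overlaps that of its neighbours.

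The tumors used very different heavy chain genes. Shares were computed from counts divided by merged exon length, in the 12 tumors with at least 100 heavy chain counts. Ighm was the most abundant heavy chain gene in 7 of them, Ighg1 in 3, and Ighg2b and Ighg2c in 1 each. The leading gene of each tumor was the same with undivided counts.

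Tumor C102-M1 was almost wholly IgM, with 97.6% Ighm by length, and Ighm was 97.2% of its 923 heavy chain counts (95% Wilson interval 95.9 to 98.1%). In C73-M10 Ighm took 82.3%, Ighd 12% and all IgG genes together 4.35%. C152-M1 of BURP-17BaSq had 81.4% Ighm and 16.7% IgG. These 3 tumors and P4 of BURP-18BaSq, with 74.8% Ighm and 23.9% IgG, were mostly unswitched. C74-MNT was more mixed, with Ighm at 57.3% of 4427 undivided counts (55.8 to 58.7%), and by length 6.24% Igha and 33.4% IgG, and C80-M30 of BURP-19NE had 79.2% Ighm over 168 counts. P4.2 of BURP-21BaSq had 44.3% Ighm over 122 counts, the fewest of the 12.

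Other tumors were mostly IgG. C148-M3 of BURP-18BaSq had 97.6% Ighg1, which was 98.3% of its 483 heavy chain counts (96.8 to 99.2%). Ighg1 also led in C47-M3 of BURP-12BaSq at 62.8% and in P5 of BURP-21BaSq at 46.1%. C47-M30 of BURP-12BaSq was led by Ighg2c at 61.9%, so that the 2 tumors of this line with enough counts were led by different IgG genes. P2 of BURP-24BaSq had the most heavy chain counts, 7596, and was led by Ighg2b at 44.3%, followed by Ighg2c at 29.5% and Igha at 14.8%. Its Ighm share was 4.68%. Within BURP-18BaSq, C148-M3 was at 1.41% and P4 at 74.8% Ighm.

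**Figure D3:**
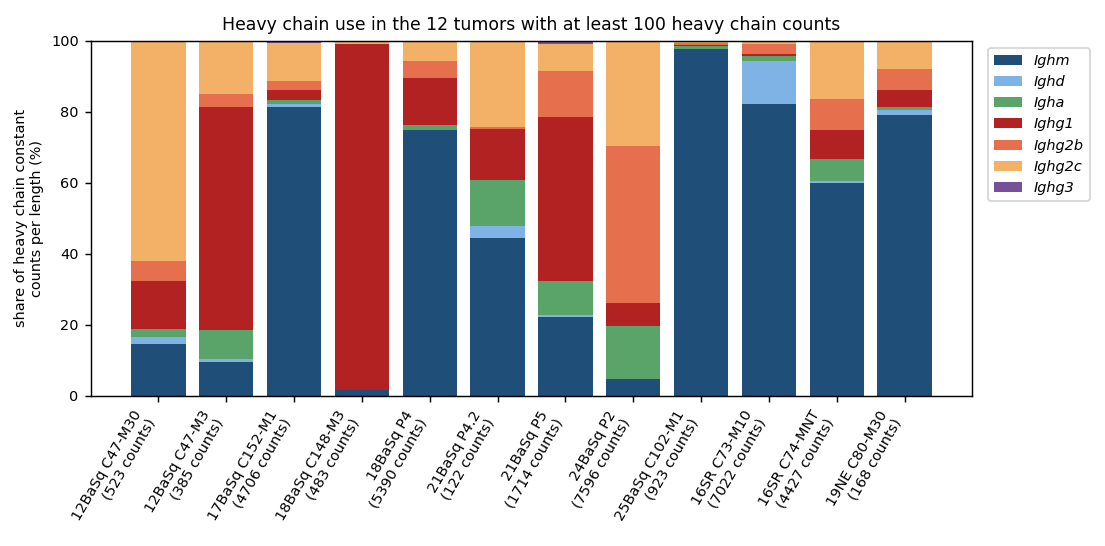
Share of each heavy chain constant gene (%, counts per merged exon length) in the 12 tumors with at least 100 heavy chain counts, whose number stands under each bar. Blue Ighm fills 97.6% of the bar of C102-M1 and 1.41% of that of C148-M3, which is filled by dark red Ighg1.

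Light chain counts and shares here are those of Igkc, Iglc1 and Iglc2, without Iglc3. Kappa was the main light chain in each of the 10 tumors with at least 100 light chain counts, with a median share of 96.5% by length. With Iglc3 and Iglc4 added the median was 94.2% and the lowest share 72.8%. Without them the lowest share, 73%, was in P2 of BURP-24BaSq, where Igkc was 75.9% of 3816 light chain counts (74.6 to 77.3%). The next lowest, also without Iglc3, was 88.4% in P4 of BURP-18BaSq. In these 2 tumors the lambda variable and constant genes were led by different pairs. In P2 of BURP-24BaSq, Iglv1 took 683 of 687 lambda variable counts, and Iglc1 had 909 counts against 9 each for Iglc2 and Iglc3. In P4 of BURP-18BaSq, Iglv2 took 110 of 190 lambda variable counts, and Iglc2 had 269 counts against 7 for Iglc1 and 80 for Iglc3. In C73-M10 and C152-M1 Iglv1 also led, with 119 and 86 counts, but Iglc3 was the most abundant lambda constant gene, with 162 and 170 counts, and Iglc2 had 90 and 33 counts against 63 and 29 for Iglc1. Iglv1 joins to Iglc1 or Iglc3 and Iglv2 mainly to Iglc2 in mice.

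In BURP-19NE heavy chain counts came with few light chain counts. C80-M1 had 94 heavy and 6 light chain counts, C80-M3 had 49 and 0, and C80-M30 had 168 and 42. Per length, light chain RNA was 0.235, 0 and 0.905 of heavy chain RNA in these tumors. In the Ba/Sq and BURP-16SR tumors with at least 40 heavy chain counts the ratio lay between 0.868 and 2.44, a range that includes C80-M30. Of the heavy chain counts in BURP-19NE, 79, 47 and 130 were Ighm.

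Variable gene use was read from the counts of 115 heavy and 100 kappa variable genes. C73-M10 used the most, with 81 heavy variable genes detected and 26 at 10 counts or more out of 784 counts. C74-MNT had 54 detected from a similar total of 774, and P4 of BURP-18BaSq had 50 from 778. P2 of BURP-24BaSq had 44 detected from a larger total of 1540. There Ighv1-82 took 39.6% (Wilson interval 37.2 to 42.1%) and Ighv1-26 21.9%, and Igkv1-110 took 53.5% of 1425 kappa variable counts. The largest share was in C148-M3, where Igkv3-5 took 73.2% of 127 kappa variable counts. In C47-M30 Ighv2-6 took 52.4% of 124 heavy and Igkv10-94 56.2% of 176 kappa variable counts. The tumors with the largest single shares of a variable gene, C148-M3, C47-M30 and P2 of BURP-24BaSq, were all IgG tumors. The other tumors led by an IgG gene had smaller leading heavy shares. These were 16.7% of 114 counts in C47-M3 and 19.8% of 252 counts in P5 of BURP-21BaSq.

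Ighv11-2 and Igkv14-126 recurred in mostly IgM tumors. Mouse B-1 cells, a long-lived innate-like B cell, are known to use this pair often. Ighv11-2 was the most abundant heavy variable gene in C73-M10 at 16.2% (13.8 to 18.9%), in P4 of BURP-18BaSq at 18.9% (16.3 to 21.8%) and in C102-M1 at 20.7% (14.2 to 29.2%). It was at 5.17% in C74-MNT and 2.6% in C152-M1. Igkv14-126 was at 14.6%, 12.8% and 9.95% in the first 3 tumors, 7.92% in C74-MNT and 2.6% in C152-M1. In P2 of BURP-24BaSq, C47-M30 and P5 of BURP-21BaSq both genes had at most 2 counts. A second pair read for B-1 cells, Ighv12-3 and Igkv4-91, did not recur together. Ighv12-3 was at 1.53%, 0.386% and 0.901% in the first 3 tumors and 0.258% in C74-MNT. Igkv4-91 was at 3.4%, 0.777%, 12.4% and 8.77% in the same order. Whether the B cells were B-1 cells was not tested. The last 150 bases of the variable exon of Ighv11-2 and Igkv14-126 are shown because these genes recurred in tumors of several lines. The capitals mark the last cysteine codon of the exon, where the third hypervariable loop begins.
Ighv11-2, chr12:114048241-114048390, minus strand: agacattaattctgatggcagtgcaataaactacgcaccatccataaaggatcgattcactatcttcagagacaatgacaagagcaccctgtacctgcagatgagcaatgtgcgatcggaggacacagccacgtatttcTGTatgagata
Igkv14-126, chr6:67896493-67896642, plus strand: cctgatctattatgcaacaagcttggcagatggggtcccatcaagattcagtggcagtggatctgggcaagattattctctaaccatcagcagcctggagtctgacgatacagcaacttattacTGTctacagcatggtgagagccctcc
Of the 50-base windows of Ighv11-2, 38.6% were shared with another variable gene, mostly Ighv11-1, and of Igkv14-126 none were. For Igkv1-110 the share was 50.9%, mostly with Igkv1-117. Counts by gene also hold the junctions of rearranged genes only in part, so a clone cannot be read from them.

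**Figure D4:**
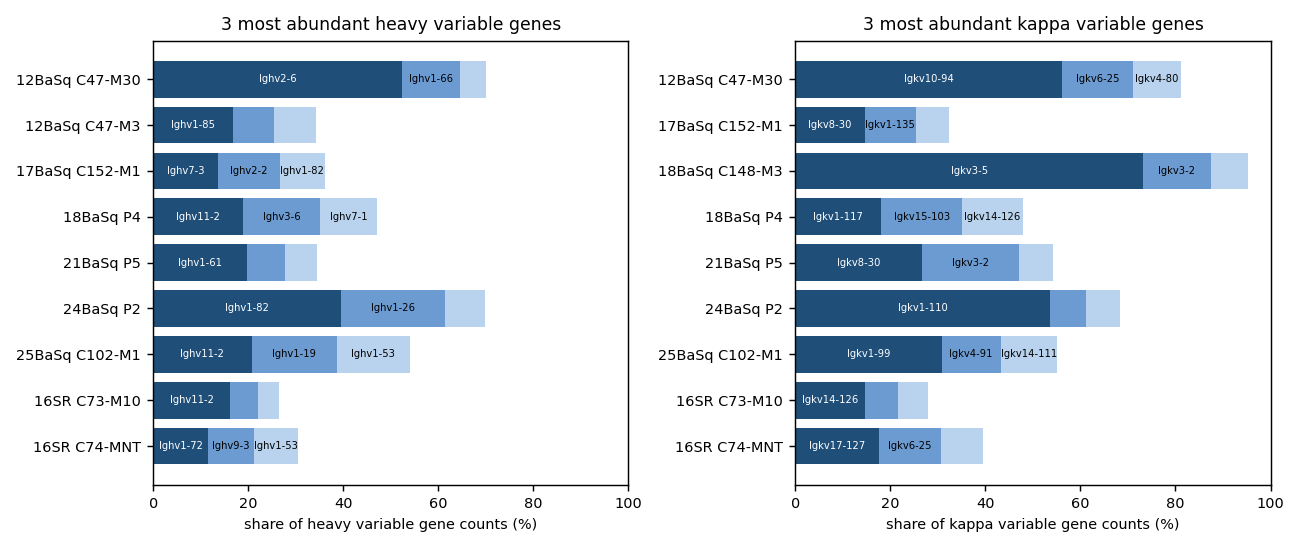
Share of variable gene counts (%) taken by the 3 most abundant heavy (left) and kappa (right) variable genes in tumors with at least 100 counts of that chain. The bars are longest in C148-M3 (Igkv3-5 at 73.2%) and C47-M30, and Ighv11-2 leads in 3 tumors of 3 lines.

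BURP-16SR was compared with the 18 Ba/Sq tumors to ask whether the stroma-rich line differs in immunoglobulin. Of the 10 genes tested 1 passed, Ighd, against 19.2% of all genes tested, and 3 were under an unadjusted p of 0.05. A gene passed at an adjusted p under 0.05 by edgeR's quasi-likelihood test with Benjamini-Hochberg adjustment and a log2 fold change beyond 1. Ighd was higher by 6.95 on the log2 scale (SE 0.90, edgeR adjusted p = 6.3e-06). It had at least 10 counts in 2 of the 18 Ba/Sq tumors and 2 BURP-16SR tumors. Ighd thus passed the filter on low counts only with BURP-16SR included, and its fold change is a description. The value rested on C73-M10, and without that tumor it was 1.91 (edgeR adjusted p = 0.27). None of the 10 genes then passed by edgeR, with 0 under an unadjusted p of 0.05. Ighm was at a log2 fold change of 3.23 (SE 1.33, edgeR adjusted p = 0.079) and Igkc at 2.36 (SE 1.3, edgeR adjusted p = 0.19), with both groups overlapping. With all 24 tumors in 1 fit 6 of the 10 genes passed, against 5760 of 21383 genes in that fit. The 6 were Ighm, Ighd, Igha, Ighg3, Iglc1 and Iglc2. Of these, Ighd, Ighg3, Iglc1 and Iglc2 had at least 10 counts in only 4, 5, 4 and 3 of the 24 tumors, BURP-16SR tumors among them. They entered that fit mainly through their high tumors, so their values there are a description.

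Mature B cell genes rose with Ighd in the same comparison. Of 11 B cell genes tested 10 were higher, with a median log2 fold change of 4.99 against 19.2% of all genes changed in either direction. Only 8 of the 15 listed could be tested between BURP-19NE and the Ba/Sq lines. Genes that entered through BURP-16SR, the line where they were high, are a description. Ms4a1, the gene of CD20, was at 44.9 CPM in C73-M10, 1.31 CPM in C74-MNT and 0.0699 CPM in P5. Without C73-M10 none of 11 passed by edgeR, 1 was under an unadjusted p of 0.05, and the median was 1.59. Of genes of lymph nodes and follicles 6 of 8 were higher, and 1 of 9 without C73-M10. Cr2 (CD21, on mature B cells and follicular dendritic cells) was at 18.6 CPM and Ccl21a, a chemokine of lymphatic tissue, at 10.1 CPM in C73-M10. The summed lymph node list was at 158, 57.4 and 33.8 CPM in C73-M10, C74-MNT and P5 and at 1.76 to 49.4 CPM in the Ba/Sq tumors, with 10 of 11 genes detected in C73-M10 and Madcam1 at 0. The summed T cell list was at 79.7, 94.6 and 21.5 CPM, against 4.11 to 53.4 CPM. In P5 most of the T cell sum was the single gene Trbc1, with 9 of 15 genes detected, and most of the lymph node sum was Prox1. The part of these cell types in the result was not tested.

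Of 15 plasma cell genes tested, 3 were higher in BURP-16SR (Pou2af1, Cd38 and Txndc5) and 1 was lower (Sdc1), against 19.2% of all genes. Without C73-M10 1 was higher and 1 lower, against 2670 of 21819 genes. Sdc1, Prdm1 and Xbp1 serve plasma cells but are also made by epithelium. Sdc1 ran from 343 to 2040 CPM in the Ba/Sq tumors and 147.0 to 186 CPM in BURP-16SR, where 5 of 7 epithelial genes were lower too. Jchain was at 19, 21 and 0.0699 CPM in BURP-16SR, at a log2 fold change of 1.67 (SE 1.44, edgeR adjusted p = 0.42). Of genes of early B cells only Dntt passed the filter on low counts, and it did so through BURP-16SR alone, with 11 to 103 counts there and 0 to 3 in the Ba/Sq tumors, so its levels are a description. Dntt encodes the polymerase that adds bases at the joints of antigen receptor genes. It was highest in P5 at 7.20 CPM, where the 10 genes summed to 1.47 CPM, and at 1.52 and 0.85 CPM in C73-M10 and C74-MNT.

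BURP-19NE was compared with the same 18 tumors to ask whether the neuroendocrine-like line lacks antibody RNA. None of 7 genes tested passed by edgeR, against 24.3% of all genes, although 3 were under an unadjusted p of 0.05 and DESeq2 called 2, Ighg1 and Igkc. Igkc was at a log2 fold change of -4.94 (SE 2.19, edgeR adjusted p = 0.087) and Ighg1 at -5.95 (SE 2.73, edgeR adjusted p = 0.098). Ighm was at -2.72 (SE 1.94, edgeR adjusted p = 0.29). All 7 values were negative. The plasma cell list had 4 of 15 genes lower (Sdc1, Prdm1, Xbp1 and Ell2) and 1 higher, and of 8 B cell genes none passed by edgeR and 1 was under an unadjusted p of 0.05.

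BURP-16SR and BURP-19NE were compared directly, with 3 tumors each. All 3 genes that could be tested were higher in BURP-16SR: Ighm by 5.98 (SE 1.76, edgeR adjusted p = 0.040), Ighg2b by 6.62 (SE 2.06, edgeR adjusted p = 0.047) and Igkc by 7.34 (SE 2.19, edgeR adjusted p = 0.041). Of all genes tested 23.6% passed. Ighg2b and Igkc each had at least 10 counts in 2 BURP-16SR tumors and 1 BURP-19NE tumor. They thus passed the filter on low counts through BURP-16SR, and their values are a description. The groups still overlapped, since P5 of BURP-16SR was below every BURP-19NE tumor for Ighm. By edgeR 0 genes passed when C73-M10, C74-MNT or any 1 BURP-19NE tumor was left out, with 3 to 6 under an unadjusted p of 0.05. Without P5 of BURP-16SR, 9 of 9 genes tested passed, against 5545 of 18683 genes. These genes too entered mainly through C73-M10 and C74-MNT.

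BURP-24BaSq and BURP-16SR were compared because they are the pair the study compared for cisplatin response. They differ in both subtype and sex. None of 8 genes tested passed by edgeR, against 29% of all genes. Ighm was at a log2 fold change of -5.42 (SE 1.85, edgeR adjusted p = 0.056), the only one under an unadjusted p of 0.05 and the only one DESeq2 called. The other 7 lay between -1.60 and 1.31, values that rested on P2 of BURP-24BaSq. Without it Ighg2b was at -7.66, Iglc1 at -6.48 and Ighg1 at -5.90, and of 9 genes tested 0 passed by edgeR and 5 were under an unadjusted p of 0.05. Subtype and sex cannot be told apart in this pair.

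The male and female Ba/Sq lines, 9 tumors each, were compared for a difference between sexes. None of 4 genes tested passed by edgeR or DESeq2, against 2.31% of all genes, and 1 was under an unadjusted p of 0.05. That gene was Igha, at a log2 fold change of -2.56 for male against female lines (SE 1.17, edgeR adjusted p = 0.19). Igha ran from 0 to 4.70 CPM in the male lines and from 0 to 55.4 CPM in the female lines. Igkc was at 0.10 (SE 1.15, edgeR adjusted p = 0.97), and its sign changed in several alternative fits. The SE of each was above 1, so a difference of a few fold in either direction lies within the error.

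A test of any difference among the 8 lines passed 5 of the 10 genes, against 76.7% of all genes tested. They were Ighd (edgeR adjusted p = 4.2e-05), Iglc1 (0.0045), Iglc2 (0.0055), Igha (0.016) and Ighm (0.031). Ighd, Iglc1 and Iglc2 had at least 10 counts in only 4, 4 and 3 of the 24 tumors, and so entered through their high tumors. Igkc did not pass (edgeR adjusted p = 0.18), nor did Jchain (0.19). With C102-M1 counted as BURP-21BaSq 5 genes passed as well, and without C73-M10 3 did.

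Across tumors, antibody RNA rose with marker genes of plasma cells and of B cells. A score was the mean over a list without immunoglobulin genes of log2 CPM, to which a prior count of 2 had been added. Igkc had a Pearson r of 0.83 with the plasma cell score over the 24 tumors (adjusted permutation p = 4e-05; Spearman rho 0.769, adjusted permutation p = 0.00024) and 0.648 with the B cell score (adjusted permutation p = 2.7e-05; rho 0.687, adjusted permutation p = 0.0005). Ighd had r = 0.963 with the B cell score (adjusted permutation p = 2.7e-05; rho 0.69, adjusted permutation p = 0.0005) and 0.609 with the plasma cell score (adjusted permutation p = 0.00035; rho 0.431, adjusted permutation p = 0.037). Differences between values of r were not tested.

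Ighm was at 0.74 with the plasma cell score (adjusted permutation p = 5.3e-05; rho 0.56, adjusted permutation p = 0.0059) and 0.81 with the B cell score (adjusted permutation p = 2.7e-05; rho 0.871, adjusted permutation p = 8e-05). Ighg2c was at 0.753 (adjusted permutation p = 4.8e-05; rho 0.681, adjusted permutation p = 0.0005) and 0.547 (adjusted permutation p = 0.0043; rho 0.645, adjusted permutation p = 0.0012). The 8 relations were adjusted together, and the tests were two-sided. Each held the sign without the 2 tumors farthest from the median score, where r was 0.572 to 0.855, and after each line was centred on its mean, where r was 0.555 to 0.968. Tumors of a line share a donor, so 24 overstates the number of independent tumors.

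Jchain was the gene outside the immunoglobulin loci most like Igkc, with r = 0.95 over the 24 tumors, and 0.954 within lines, among 21340 genes. The next 9 were Myo1g (0.905), Plcb2 (0.866), Cd2 (0.864), Irf4 (0.858), Cyfip2 (0.857), Snx20 (0.854), Bin2 (0.849), Rasal3 (0.845) and Selplg (0.841). Irf4 is a transcription factor of plasma cells and activated lymphocytes, and Cd2 is a surface protein of lymphocytes. Myo1g, Plcb2, Cyfip2, Snx20, Bin2, Rasal3 and Selplg were not assigned to a cell type. Library depth and the levels of other immune genes also varied between the tumors, and their part in these values was not tested. Among the 10 tumors with at least 100 counts of Igkc, Jchain relative to Igkc was least in C47-M3, at 8.11 counts per 100 counts of Igkc, and most in C102-M1, at 33.9.

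**Figure D5:**
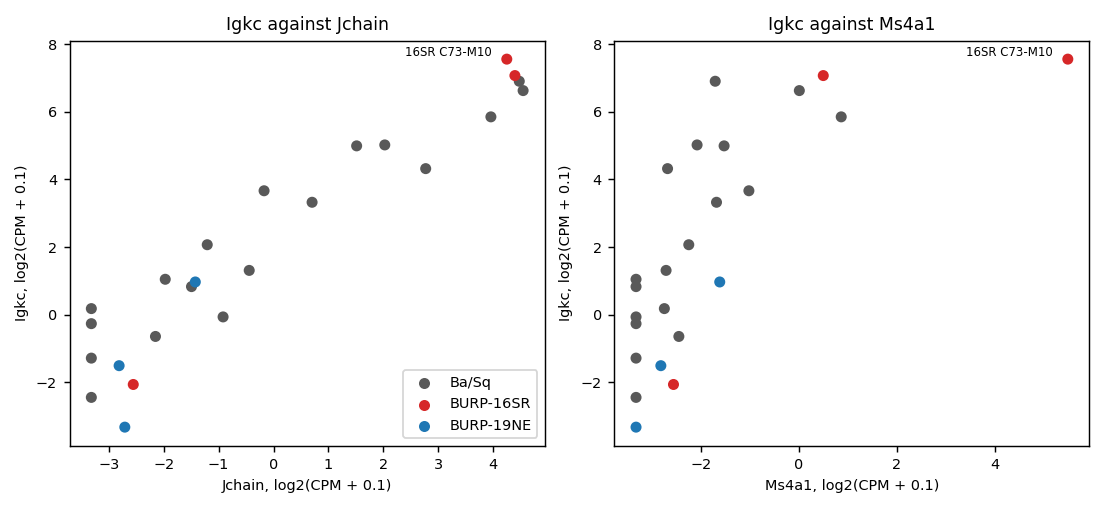
Igkc against Jchain (left) and against Ms4a1 (right) in the 24 tumors, both as log2(CPM + 0.1), with BURP-16SR in red and BURP-19NE in blue. The points rise together on the left (r = 0.95, with 2 as the prior count), and on the right C73-M10, at 44.9 CPM of Ms4a1, lies far from the others.

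Among other plasma cell genes, Mzb1, a chaperone of immunoglobulin folding, had 44 counts in C73-M10, 42 in P2 of BURP-24BaSq, 29 in P4 of BURP-18BaSq and at most 21 elsewhere. Tnfrsf17, the receptor BCMA of plasma cells, had at most 6 counts. Derl3, which takes part in degradation of misfolded proteins, lay between 0.489 and 4.04 CPM and was highest in P4 of BURP-21BaSq, a tumor with 0.734 CPM of Igkc.

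The summed level of 12 receptors that carry or bind antibody was highest in the 6 tumors that held most antibody counts, from 144 CPM in P2 of BURP-24BaSq to 293 CPM in C73-M10. A sum of 10 macrophage genes was highest in the same 6 tumors, from 325 CPM in P2 of BURP-24BaSq to 814 CPM in C152-M1. Fcgr1 is on both lists, and the part of macrophages in the receptor sum was not tested. Pigr and Fcamr were high elsewhere. Pigr, which moves IgA and IgM across epithelium, was highest in BURP-12BaSq at 32.2, 13.2 and 29.9 CPM, a line whose Igha was 0.25 to 1.33 CPM. It had at most 2 counts in BURP-16SR, and was lower than in the Ba/Sq lines by a log2 fold change of -5.95 (SE 2.07, edgeR adjusted p = 0.040), which did not pass without C73-M10 (edgeR adjusted p = 0.10). It had none in BURP-19NE, where it was also lower (edgeR adjusted p = 0.012). It was higher in male than in female Ba/Sq lines by 2.99 (SE 0.84, edgeR adjusted p = 0.043), with BURP-12BaSq alone above 6 CPM. With counts summed per line, 0 of 21658 genes passed by edgeR and 1388 were under an unadjusted p of 0.05, so this call was lost. Fcamr, a receptor for IgA and IgM, was between 0.274 and 4.77 CPM in Ba/Sq tumors and had at most 2 counts in BURP-16SR and none in BURP-19NE. Of the 12 receptor genes, 2 of 11 tested were higher and 2 lower in BURP-16SR than in the Ba/Sq lines, against 19.2% of all genes, and without C73-M10 none of 12 was higher and 1 was lower by edgeR, with 3 under an unadjusted p of 0.05. In BURP-19NE 3 of 11 were lower, against 24.3% of all genes, a share near that background. Fcmr, the receptor for IgM on B cells, was at 14.5 CPM in C73-M10 and at most 1.26 CPM in the Ba/Sq tumors. It was higher in BURP-16SR by 3.48 on the log2 scale (SE 0.76, edgeR adjusted p = 0.0020), and without C73-M10 it was at -0.58 (edgeR adjusted p = 0.76).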

How the data were processed

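Total RNA of 24 tumors was depleted of ribosomal RNA and sequenced from both ends. The authors aligned reads with STAR 2.6.0a to GRCm38 with GENCODE M16 and deposited expected counts per gene from RSEM 1.3.1, not normalized, and 12.5% of values were not whole. RSEM divides reads that match several genes, the kit marks strand, and the counting strand is not given in the sources used here. Counts were rounded. Line and tumor came from the sample titles, and subtype and sex, which the labels do not give by line, from the study's description of the lines.

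Tests used edgeR 4.0.16 (TMM, filterByExpr, glmQLFit, glmQLFTest) in R 4.3.3 over all genes, with Benjamini-Hochberg adjustment. The any-difference test used the adjusted p alone. The fits were tested on simulated data. Relations used 100000 permutations, of which 1e-05 is the smallest p. Shares needed 100 counts, and intervals are Wilson intervals at 95%. Alternatives were DESeq2 1.42.0 and its size factors, other filters, a plasma cell list without genes of epithelium, all tumors in 1 fit, robust dispersion, ribosomal genes left out, counts summed per line, a prior count of 0.5, other lengths, and each tumor left out. The shortest transcript as length was chosen after seeing the data. Sequences came from GENCODE M21 on GRCm38.

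Some genes of the lists are not reported here. The genes and lists were chosen with earlier results of these data known. Named were the 10 genes, the other constant genes, Jchain, listed genes where a list was described, the 10 genes most like Igkc, and the leading variable genes. Replicates were numbered in accession order, which pairs no tumors.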

Additional observations from a re-analysis of the deposited data

Results flagged for a closer look

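Within the 9 male and the 9 female Ba/Sq tumors, the highest tumor stood far above the next in 10 of 20 gene and sex groups, by the gap to its neighbour relative to the range of the group. Chance alone flags about 1 in 20 such groups, for values that are normally spread, and these levels are strongly skewed.

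In the female lines, P2 of BURP-24BaSq stood apart for Igha (55.4 CPM), Ighg2b (167 CPM), Ighg2c (54.9 CPM), Igkc (119.7 CPM) and Iglc1 (37.6 CPM), and C102-M1, labelled BURP-25BaSq, for Ighm (50.4 CPM). In the male lines, C152-M1 of BURP-17BaSq stood apart for Ighd (1.38 CPM) and Ighg3 (1.11 CPM), and P4 of BURP-18BaSq for Ighg2b (18.4 CPM) and Iglc2 (14.4 CPM).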

How the results depend on the processing

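No paired analysis was possible because the replicate numbers were given in accession order and mark no shared animal or day. The count of genes that passed moved by over 1.5 times as follows. For BURP-19NE against the Ba/Sq lines, DESeq2 called 2 in place of 0. For BURP-16SR against the Ba/Sq lines, 6 passed with all tumors in 1 fit in place of 1, and 0 to 3 with a tumor left out: 0 without C73-M10, 3 without C152-M1 or P2 of BURP-24BaSq and 2 without P4 of BURP-18BaSq. DESeq2 gave Ighd no adjusted p there and called Iglc2. For BURP-16SR against BURP-19NE, 8 of 10 passed with no filter, against 4710 of 31973 genes, in place of 3. With all tumors in 1 fit 6 of 10 passed, against 5175 of 21383 genes, and 0 to 9 passed with a tumor left out. For BURP-24BaSq against BURP-16SR, 1 passed with DESeq2, 2 with no filter and 1 with all tumors in 1 fit in place of 0, and 0 to 2 with a tumor left out, the 2 without P5 of BURP-16SR. For any difference among lines, 3 to 7 passed with a tumor left out, 3 of them without C73-M10. For the sexes it stayed at 0. With all tumors in 1 fit, Ighd, Ighg3, Iglc1 and Iglc2 entered mainly through their high tumors. The cause of these shifts was not tested.

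Of 717 refitted log2 fold changes of single genes, 20 changed sign. With all tumors in 1 fit Igkc in male against female lines was -0.12, and with DESeq2 Ighm there was -1.30. With a tumor left out, Igkc there was -0.68 to 1.34, with negative values from -0.68 to -0.05. In BURP-16SR against the Ba/Sq lines, Ighg1 was -2.25 to 0.91, Ighg2c -1.65 to 2.51 and Iglc2 -1.76 to 2.08 with a tumor left out. The first and second were lowest without C74-MNT and Iglc2 without C73-M10. In BURP-24BaSq against BURP-16SR, Igha was -3.33 to 1.76, Ighg1 -5.90 to 1.88, Ighg2b -7.66 to 2.19, Ighg2c -4.77 to 3.47 and Iglc1 -6.48 to 2.20 with a tumor left out, the lowest of each without P2 of BURP-24BaSq. The 8 relations kept their direction and stayed under an adjusted p of 0.05 in every alternative, with r from 0.5 to 0.971. Ighm led in 7 tumors with each length tried, and the median kappa share was 94.2% to 96.5%, lowest with Iglc3 and Iglc4 added. In 12 tumors the 10 genes together held under 140 counts, which limits what can be said of their isotypes.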

Other observations

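Among genes that support B cells, Cxcl13, which draws B cells into follicles, was at 25.7 CPM in C73-M10 and 14.5 CPM in C74-MNT of BURP-16SR, 10.7 CPM in C152-M1 of BURP-17BaSq and at most 1.18 CPM in the other tumors. It was higher in BURP-16SR than in the Ba/Sq lines by a log2 fold change of 4.07 (SE 1.26, edgeR adjusted p = 0.022), which did not pass without C73-M10. Of 10 such genes tested 6 were higher there and 3 of 11 without C73-M10, among them Cxcl12 and Tnfsf13b (BAFF), against 19.2% of all genes changed with C73-M10 included.

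In P5 of BURP-16SR, with 21 counts over the 10 genes, the summed T cell list was at 21.5 CPM with 9 of 15 genes detected, below C73-M10 and C74-MNT with 15 each. Its constant gene Trbc1 differed from the rest of the list, with 275 counts in P5 against 190 and 189 counts. Prox1, a gene of lymphatic endothelium and some epithelia, had 312 counts in P5 against 109 and 118 counts. Trbc1 made up most of the T cell sum in P5, and Prox1 most of its lymph node sum. Both genes were chosen after their values were seen.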
